A study of Mus musculus with 6 samples.

Results

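The 31 genes described here are interferon-stimulated genes, taken by symbol from a fixed list and found among the 24376 gene IDs of the tables. Each symbol matched 1 Ensembl ID. The list was read in mouse fetal liver blood progenitors after a retrovirus had delivered a short hairpin RNA, with the level of each gene in every library first and the comparison of the hairpins second.

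Interferons are secreted proteins that cells release when sensors such as RIG-I, MDA5 or cGAS meet foreign RNA or DNA. Type I interferon binds the receptor pair Ifnar1 and Ifnar2, the kinases Jak1 and Tyk2 phosphorylate STAT proteins, among them Stat2, which join Irf9 in a complex named ISGF3. ISGF3 binds the interferon-stimulated response element (ISRE) in the promoters of genes such as Isg15, Ifit1, Mx1 and Oas1a, whose products block steps of viral replication; many are scarce in resting cells and abundant after interferon.

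The 6 libraries, 3 in each of 2 groups, were made from polyadenylated RNA of C57BL/6 embryos at E14.5: cultures given a hairpin against Samd14 (shSamd14) and cultures given a control hairpin. In both groups progenitors enriched from fetal liver were infected right after isolation and grown for 3 days in StemPro-34 medium, and cells without CD71 and Ter119 on their surface were then lysed. All 6 libraries therefore come from virus-infected cultures, with none from uninfected cells, so the values give a level after hairpin delivery and not an induction by it. The labels do not say whether replicates came from separate embryos or cultures, so a p-value here speaks only of the spread among these 6 libraries, which may be technical.

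Libraries held 25344092, 23862151 and 26462797 expected counts for shSamd14 and 20584169, 23294223 and 24069711 for the control hairpin, so that 3 counts correspond to 0.111 to 0.145 CPM (counts per 1000000). Samd14 itself had 20.5, 19.6 and 20.6 TPM (transcripts per 1000000, a level corrected for gene length) in shSamd14 libraries, against 42.8, 40.5 and 41.3 TPM in control libraries, which is 1.05 lower on the log2 scale (SE 0.07, adjusted p = 4.69e-07, edgeR with Benjamini-Hochberg adjustment). The 8 progenitor markers, among them Kit, Gata2 and Mpo, and the 5 erythroid markers were each at a mean of at least 1 TPM. So were 7 of 8 neutrophil markers and 7 of 7 megakaryocyte markers. Per library the neutrophil markers summed to 5164 to 9428 TPM and the progenitor markers to 1576 to 2383 TPM.

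Promoters of the list were read first, because the ISRE is the sequence through which ISGF3 reaches these genes. Its core (GAAA, any 2 bases, GAAA) was searched on both strands, overlapping copies included, in RefSeq windows of GRCm38.p6 that run from 250 bases before to 50 bases after each annotated start. A window existed for 22 of the 31 members, and 15 of these 22 (68.2%) held the core, against 3.99% of 27025 genes with a window. The members were picked as interferon-induced genes, so this share describes the choice and was not tested. Cores stood in 10 of 15 tested members with a window and in 5 of 7 members whose counts were too low to test. The stretches printed here, written 5′ to 3′ on the gene's strand with the cores in capitals, show a gene that was abundant in these cells (Bst2), genes of middle level (Eif2ak2, Stat2, Oas1a, Isg15) and genes that were nearly silent (Rsad2, Ifit3, Ifit1).
Bst2, chr8:71537575-71537614, minus strand: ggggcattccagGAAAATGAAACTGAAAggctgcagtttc
Eif2ak2, chr17:78882533-78882566, minus strand: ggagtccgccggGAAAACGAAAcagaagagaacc
Stat2, chr10:128270264-128270297, plus strand: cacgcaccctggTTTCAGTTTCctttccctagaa
Oas1a, chr5:120907518-120907557, minus strand: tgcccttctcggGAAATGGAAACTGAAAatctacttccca
Isg15, chr4:156200863-156200908, minus strand: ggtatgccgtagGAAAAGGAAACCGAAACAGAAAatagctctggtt
Rsad2, chr12:26456551-26456584, minus strand: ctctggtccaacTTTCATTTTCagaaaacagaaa
Ifit3, chr19:34583361-34583428, plus strand: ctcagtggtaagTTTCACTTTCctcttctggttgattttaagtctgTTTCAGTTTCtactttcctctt
Ifit1, chr19:34640773-34640825, plus strand: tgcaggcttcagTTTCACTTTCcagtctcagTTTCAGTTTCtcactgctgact
Isg15 carried 3 overlapping cores, Bst2 and Oas1a carried 2 overlapping cores each, and Ifit1 and Ifit3 carried 2 separate ones. The printed run of Oas1a is identical to that of Oas1g, its near copy on the same chromosome. A core was thus present at both ends of the range of levels given next. These letters were not found in the windows of Ifit2, Oasl1, Oasl2, Irf7, Irf9, Ifi44 and Xaf1. Oas2, Usp18, Mx1, Mx2, Rtp4, Dhx58, Zbp1, Ifi27l2a and Parp14 were not analysed for the core.

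In infected progenitors the list spanned a wide range of levels, with the tetherin gene Bst2 at the top and Cxcl10, Ifit3, Ifit1, Mx2, Oas1g and Ifi44 at the bottom. A mean of at least 1 TPM over the 6 libraries was reached by 14 of the 31 members (45.2%), against 46.5% of all gene IDs. The top of the order was Bst2, Irf9, Eif2ak2, Stat2, Ifih1, Xaf1 and Ifit2, with means of 96.6, 20.6, 20.2, 9.73, 6.91, 6.69 and 5.10 TPM. Dhx58, Ddx58, Oas1a, Parp14, Isg15, Oas3 and Irf7 followed at means between 2.39 and 1.29 TPM. No member was at 0 in all 6 libraries, but 4 stayed under 3 counts in every one of them: Ifit1, Mx2, Oas1g and Ifi44. Another 7 reached 3 counts somewhere and were still too low to test: Ifi27l2a, Zbp1, Rsad2, Rtp4, Oasl1, Cxcl10 and Ifit3. In RNA pooled from many sorted cells, fewer cells that express a gene and less RNA of it per cell cannot be told apart.

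**Figure D1:**
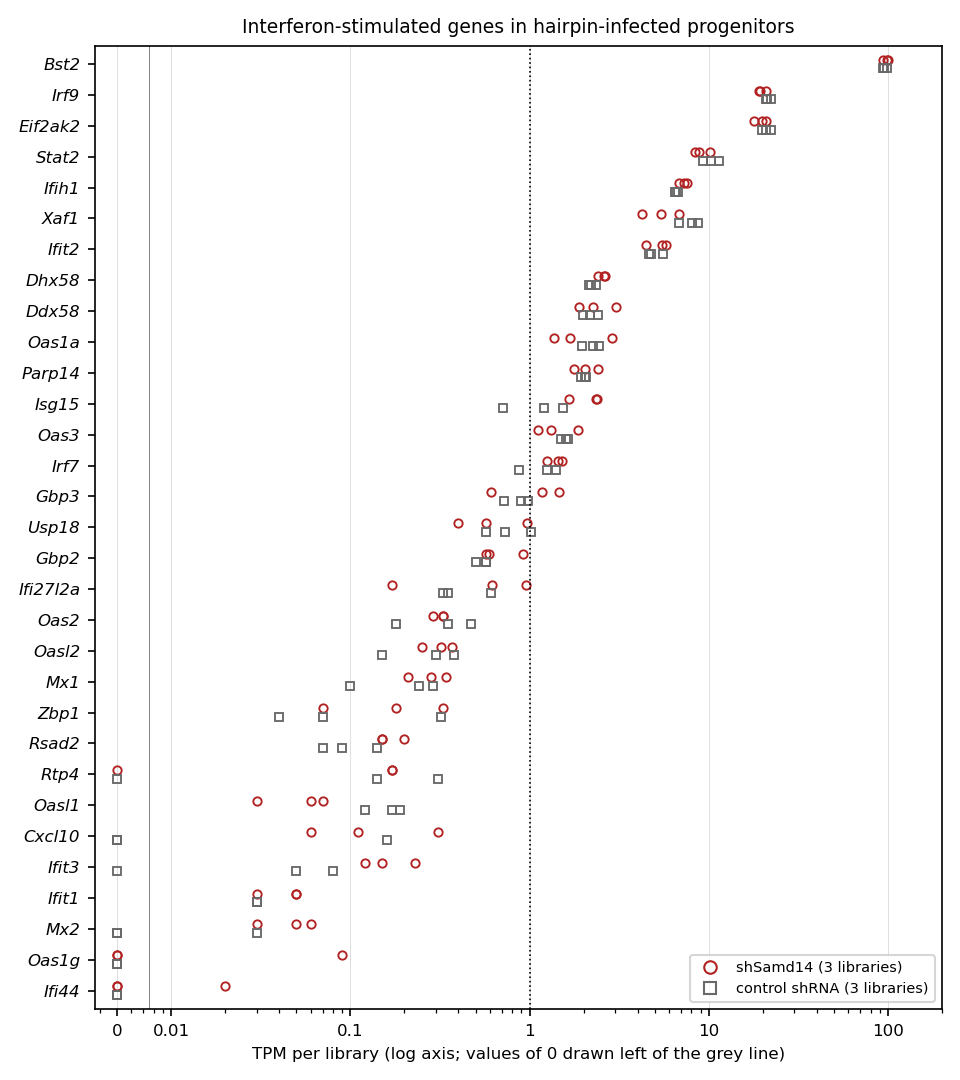
TPM of the 31 members in each library on a log axis, ordered by the mean over 6 libraries; circles are shSamd14 libraries, squares control libraries, and values of 0 sit left of the grey line. Bst2 stands near 100 TPM, 14 members have a mean of at least 1 TPM (dotted line), and the points of both groups intermingle for most members.

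Between the hairpins no member passed the test: 0 of the 20 tested members passed 0.05 in edgeR after Benjamini-Hochberg adjustment, and the smallest adjusted p was 0.215. Over all 12670 tested genes 2.58% passed, 1.32% higher and 1.26% lower in shSamd14 libraries. An unadjusted p under 0.05 was reached by 2 members, Isg15 with a higher and Xaf1 with a lower value in shSamd14 libraries, beside 1900 of the 12670 tested genes. DESeq2 and limma-voom also called 0 members. DESeq2 gave no adjusted p for Isg15, Irf7, Usp18, Mx1, Gbp2, Gbp3, Oas2 and Oasl2, so it could not call these genes. Log2 fold changes were positive for 12 and negative for 8 tested members, with a median of 0.05, against 0.01 over all tested genes. CPM of the groups did not overlap for 3 members with higher values in shSamd14 libraries (Ifih1, Isg15, Gbp2), where 10.5% of all tested genes stood apart that way. They stood apart for 2 members with lower values (Irf9, Eif2ak2), where 10.2% of all tested genes did. For 10 of the 20 the unadjusted 95% interval of the fold change lay within 1.5-fold in either direction; for the other 10, most of them low in counts, larger differences remain possible. The biological coefficient of variation had a median of 12.9% over the tested members and 7.49% over all tested genes, while the members' median level was 2.07 TPM, against 17.4 TPM over all tested genes.

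**Figure D2:**
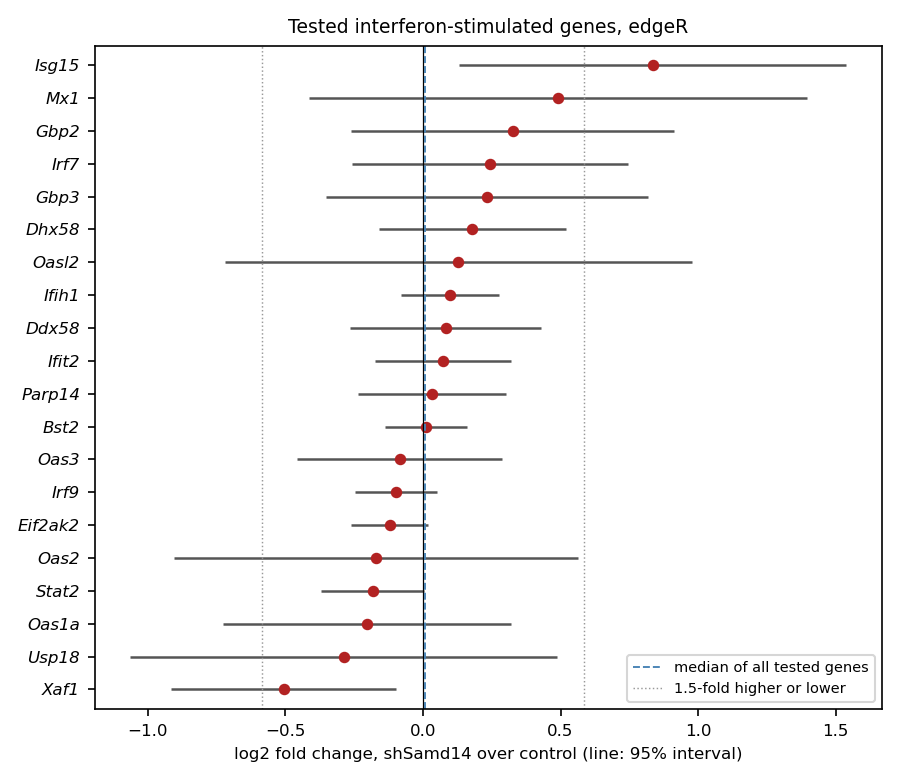
Log2 fold change of shSamd14 over control for the 20 tested members with the 95% interval of each (edgeR, unadjusted); the dashed line is the median of all tested genes and the dotted lines mark 1.5-fold. The intervals of Isg15 and Xaf1 lie off 0, and those of the abundant members Bst2, Irf9, Eif2ak2, Stat2 and Ifih1 lie between the dotted lines.

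The RNA sensors were present at low to moderate levels and held close between the groups. Eif2ak2 (PKR), a kinase that is activated by double-stranded RNA and halts translation, had 17.8, 19.8 and 20.8 TPM in shSamd14 libraries, against 22.2, 20.9 and 19.9 TPM in control libraries. These TPM overlap although the CPM do not, and the log2 fold change was -0.12 (SE 0.07, 95% interval -0.26 to 0.02). Ifih1 (MDA5), which recognises long double-stranded RNA, had 7.25, 7.54 and 6.85 TPM in shSamd14 libraries, against 6.77, 6.51 and 6.55 TPM in control libraries. Every shSamd14 library was above every control library, by only 0.10 on the log2 scale (SE 0.08, adjusted p = 0.633, edgeR with Benjamini-Hochberg adjustment). Ddx58 (RIG-I), the sensor of short RNA with a 5′ triphosphate, had 1.89, 2.26 and 3.05 TPM in shSamd14 libraries, against 2.18, 1.99 and 2.41 TPM in control libraries, with the control values inside the shSamd14 range. Dhx58 (LGP2), a helicase that modulates both, had 2.65, 2.59 and 2.40 TPM in shSamd14 libraries, against 2.15, 2.34 and 2.19 TPM in control libraries. Its log2 fold change of 0.18 (SE 0.16) had an interval from -0.16 to 0.52. Zbp1, a sensor of Z-form nucleic acid, was not testable, with 2, 5 and 4 counts in shSamd14 libraries, against 1, 2 and 5 counts in control libraries. Eif2ak2 overlaps a predicted gene on the opposite strand, and the use of strand in counting is not given in the sources used here, so part of its reads is uncertain.

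The transcription factors of the response were all tested, and none passed. Stat2, the interferon-specific STAT, had 8.84, 8.40 and 10.2 TPM in shSamd14 libraries, against 11.4, 9.31 and 10.3 TPM in control libraries. The groups overlapped, and the log2 fold change was -0.18 (SE 0.09, adjusted p = 0.345, edgeR with Benjamini-Hochberg adjustment). Irf9, the DNA-binding part of ISGF3, had 19.1, 19.3 and 20.8 TPM in shSamd14 libraries, against 22.2, 21.1 and 20.9 TPM in control libraries. All 3 shSamd14 values were below the lowest control value by this narrow margin, with a log2 fold change of -0.10 (SE 0.07, 95% interval -0.25 to 0.05). Irf7, which amplifies type I interferon production and is itself interferon-induced, had 43, 34 and 44 counts in shSamd14 libraries, against 29, 23 and 39 counts in control libraries. Scaled for depth, its groups overlapped, with a log2 fold change of 0.24 (SE 0.23, 95% interval -0.26 to 0.75). Irf9 shares sequence with Rnf31 on the same strand and Irf7 with Phrf1 on the opposite strand, so some of their reads could belong to the neighbour.

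Among the IFIT genes, whose proteins bind foreign RNA and block its translation, only Ifit2 reached 1 TPM. The family lies in a cluster on chromosome 19, with Ifit2 at chr19:34550694-34576419, Ifit3 at chr19:34583531-34588731 and Ifit1 at chr19:34640871-34650009. Ifit2 had 4.45, 5.49 and 5.78 TPM in shSamd14 libraries, against 5.52, 4.75 and 4.62 TPM in control libraries. The groups overlapped and the log2 fold change of 0.07 (SE 0.12) had an interval from -0.17 to 0.32. Ifit3 had 6, 3 and 4 counts in shSamd14 libraries, against 1, 2 and 0 counts in control libraries. All shSamd14 counts of Ifit3 were above the control counts, and in a fit with no filter on low counts its adjusted p was 0.403 (edgeR with Benjamini-Hochberg adjustment). Ifit1 had 2, 1 and 2 counts in shSamd14 libraries and 1 count in each control library, which is under the 3-count floor throughout. Its near copy Ifit1bl2 had up to 11 counts, and reads of such copies are shared out by the counting, so the split between them is uncertain.

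The OAS genes, which make the messenger that activates RNase L, or bind RNA without doing so in the case of Oasl1, were low and variable. Oas1a had 1.36, 1.67 and 2.87 TPM in shSamd14 libraries, against 1.97, 2.26 and 2.45 TPM in control libraries. The 3 control values lay inside the range of the shSamd14 ones, with a log2 fold change of -0.20 (SE 0.24). Oas3 ranged over 1.11 to 1.86 TPM in shSamd14 libraries and 1.49 to 1.63 TPM in control libraries. Oas2 and Oasl2 stayed at or under 0.47 TPM in every library, and the direction of Oas2, Oas3 and Oasl2 turned when single libraries were left out. Oasl1 had 2, 2 and 1 counts in shSamd14 libraries, against 3, 5 and 6 counts in control libraries. Its groups stood apart in the direction opposite to that of Ifit3, and the fit with no filter gave an adjusted p of 0.403 (edgeR with Benjamini-Hochberg adjustment). Oas1g was read in shSamd14 replicate 3 alone, with 2.8 expected counts. Its copies Oas1b and Oas1c had means of 1.19 and 1.62 TPM, so that the division of reads within the Oas1 family is uncertain.

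Bst2 (tetherin), which holds budding enveloped viruses at the cell surface, was by level the leading member. The gene, at chr8:71534255-71537456 on the minus strand, had 98.7, 93.6 and 99.96 TPM in shSamd14 libraries, against 93.7, 94.96 and 98.9 TPM in control libraries. Its mean exceeded that of 93.4% of all gene IDs, and its log2 fold change of 0.01 (SE 0.07) had an interval from -0.14 to 0.16. The remaining antiviral effectors were scarce. Gbp2, a guanylate-binding protein, had 0.57, 0.59 and 0.92 TPM in shSamd14 libraries, against 0.50, 0.57 and 0.57 TPM in control libraries, so that 1 of 3 shSamd14 libraries carried most of its difference. Gbp3 ranged over 0.61 to 1.45 TPM in shSamd14 libraries and 0.72 to 0.98 TPM in control libraries. Mx1, a dynamin-like antiviral GTPase whose allele in C57BL/6 makes no functional protein, ranged over 0.21 to 0.34 TPM in shSamd14 libraries and 0.10 to 0.29 TPM in control libraries. Mx2 had at most 2 counts in any library. Rsad2 (viperin), which makes a chain-terminating nucleotide, had 9.01, 8 and 12 counts in shSamd14 libraries, against 3, 5 and 8 counts in control libraries. Its TPM stood apart narrowly, with 0.15 as the lowest shSamd14 value and 0.14 as the highest control value, and its adjusted p in the fit with no filter was 0.66 (edgeR with Benjamini-Hochberg adjustment).

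Isg15 and Usp18 form a pair in which one attaches to proteins and the other removes it. Isg15, a ubiquitin-like modifier at chr4:156199424-156200818 on the minus strand, had 18.0, 24 and 26 counts in shSamd14 libraries, against 6, 12 and 16 counts in control libraries. In TPM these were 1.65, 2.39 and 2.35 for shSamd14 and 0.71, 1.21 and 1.54 for control, so the groups did not overlap. The log2 fold change was 0.83 (SE 0.33, 95% interval 0.13 to 1.54), with an unadjusted p of 0.0234 (adjusted p = 0.235, edgeR with Benjamini-Hochberg adjustment). Leaving out 1 library at a time gave log2 fold changes between 0.58 and 1.11 for Isg15, none of them past the threshold. Usp18, the protease that removes Isg15 and also damps the interferon receptor, had 0.97, 0.57 and 0.40 TPM in shSamd14 libraries, against 0.57, 0.73 and 1.02 TPM in control libraries, with groups that overlapped.

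Of the other effectors, Xaf1 had the smallest p of the list. Xaf1, an interferon-induced protein that binds the apoptosis inhibitor XIAP, lies at chr11:72301629-72313733 on the plus strand and had 6.84, 5.42 and 4.25 TPM in shSamd14 libraries, against 8.73, 8.10 and 6.81 TPM in control libraries. The highest shSamd14 value barely passed the lowest control value. The log2 fold change was -0.51 (SE 0.18, 95% interval -0.92 to -0.10), with an unadjusted p of 0.02 (adjusted p = 0.215, edgeR with Benjamini-Hochberg adjustment). Without shSamd14 replicate 1 the log2 fold change of Xaf1 was -0.74 and its adjusted p 0.0169 in the same test, and without shSamd14 replicate 3 it was -0.32, so leaving out 1 library moved this gene across the threshold. Parp14, an ADP-ribosyltransferase, had 2.04, 1.78 and 2.40 TPM in shSamd14 libraries, against 1.93, 2.06 and 2.04 TPM in control libraries. The last 4 members had too few reads to test, and their groups overlapped. Ifi27l2a had 6, 1 and 4 counts in shSamd14 libraries and 3, 2 and 2 counts in control libraries. Rtp4, an interferon-induced chaperone of membrane receptors, had 4, 0 and 4 counts in shSamd14 libraries and 0, 3 and 7 counts in control libraries. Cxcl10, a chemokine that draws T cells, had 5, 1 and 1 counts in shSamd14 libraries and 2, 0 and 0 counts in control libraries, and it shares sequence with Art3 on the opposite strand. Ifi44 was read once, in shSamd14 replicate 1. For these low genes a difference was not detectable at this depth.

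**Figure D3:**
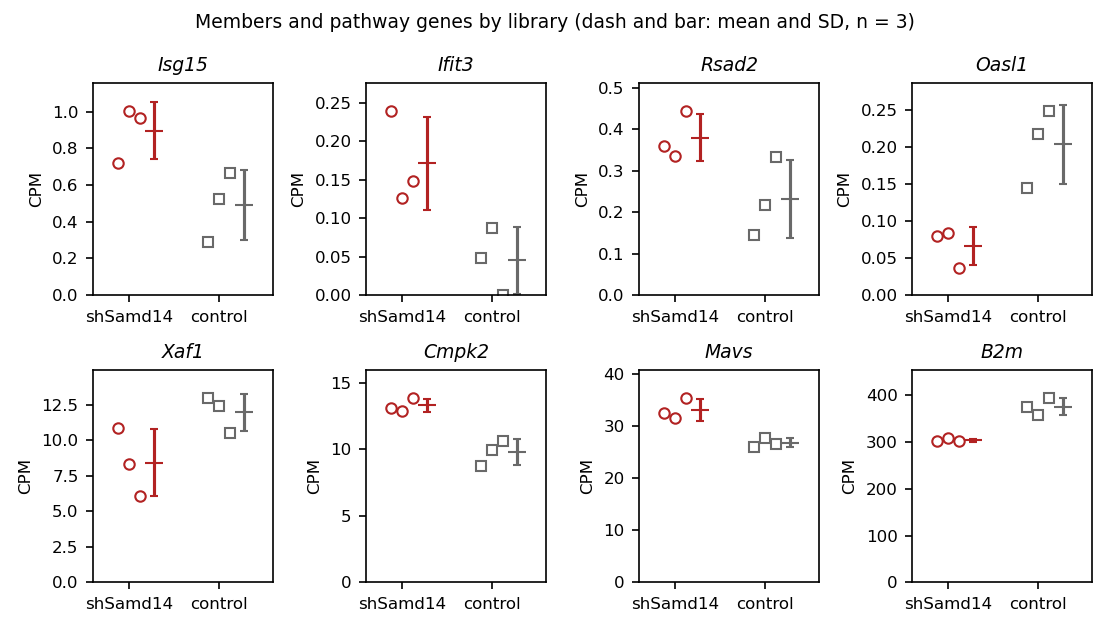
CPM per library (linear axes from 0) for 5 members and 3 further pathway genes; open symbols are libraries, the dash and bar beside them the mean and SD (n = 3), with shSamd14 on the left of each panel. Isg15 stands higher in shSamd14 libraries without passing the test. Ifit3 and Rsad2 stand higher and Oasl1 stands lower there on counts too low to test. Xaf1 overlaps narrowly, and Cmpk2, Mavs and B2m are past the threshold.

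Summed over the 31 members, the level was 180.3, 177.0 and 190.3 TPM in shSamd14 libraries, against 186.6, 181.5 and 185.9 TPM in control libraries, a ratio of means of 0.988 in which Bst2 makes up the greater part. Without Bst2 the sums were 81.6, 83.3 and 90.3 TPM in shSamd14 libraries and 92.9, 86.6 and 87.0 TPM in control libraries, a ratio of 0.958. Both TPM sums overlapped between the groups. Summed CPM did not: they were 216, 213 and 225 in shSamd14 libraries, against 228, 226 and 228 in control libraries, a ratio of 0.958 with every shSamd14 library lower. Among members with many counts, mean CPM was lower in shSamd14 libraries for Eif2ak2 (50.2 against 54.7), Irf9, Stat2 and Xaf1. It was slightly higher for Bst2 (41.6 against 41.3) and for Ifih1. Member by member, log2 fold changes were positive for 12 and negative for 8 of the 20 tested. The difference between the sums was not tested. Libraries differed mildly: shSamd14 replicate 3 held the highest value of 6 of the 20 tested members, and shSamd14 replicate 1 the lowest value of 6. Control replicate 3 held the highest value of 2. Without shSamd14 replicate 3 the median log2 fold change of the members was -0.04 in place of 0.05. Neutrophil markers were high in the third replicates of both groups, with summed levels of 6508, 6646 and 9428 TPM in shSamd14 libraries and 6324, 5164 and 9389 TPM in control libraries. None of the 7 tested neutrophil markers passed, and no unadjusted p among them was under 0.05 (edgeR, with 0 calls by DESeq2 and limma-voom also). Markers of other blood cells differed in how far they followed this pattern. Macrophage markers summed to 22.5, 21.9 and 31.5 TPM in shSamd14 libraries and 30.4, 20.8 and 33.5 TPM in control libraries, with 3 of the 10 at a mean of at least 1 TPM and C1qa and Cd5l at 0 in all libraries. Markers of plasmacytoid dendritic cells, which are known as strong producers of interferon, summed to 12.6, 14.0 and 15.5 TPM in shSamd14 libraries, against 11.3, 11.3 and 11.4 TPM in control libraries. Nearly all of this sum came from 2 of the 6, the only ones at a mean of at least 1 TPM. The median of the 6 was 0.12 TPM, 4 were too low to test, and neither of the 2 tested ones passed. Megakaryocyte markers stood apart for 7 of 7 genes and summed to 338, 378 and 344 TPM in shSamd14 libraries, against 271, 273 and 255 TPM in control libraries, with 2 of 7 past the threshold in edgeR and 4 in DESeq2. Over all tested genes 10.5% stood apart in this direction and 2.58% were called by edgeR. The part of these cell types in the members' values was not tested.

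The rest of the interferon pathway was read from 8 further lists with 178 measured genes, of which 142 were tested and 5 passed, 3 higher and 2 lower in shSamd14 libraries, beside the 2.58% of all tested genes. None of the 12 interferon genes listed was expressed at a testable level. Of 12 ligand genes, 10, among them Ifnb1 and Ifng, were at 0 in all 6 libraries, Ifnk had 1 count in 1 control library, and Ifnz had 2.06 to 3.51 counts in shSamd14 libraries and 2.25 to 4.31 counts in control libraries.

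The receptors and their kinases were all expressed at testable levels. In the test 1 of 11 passed as lower and none as higher in shSamd14 libraries, beside 1.26% and 1.32% of all tested genes. Ifnar1, the first receptor subunit for type I interferon, had 15.2, 17.1 and 17.95 TPM in shSamd14 libraries, against 20.6, 17.8 and 18.7 TPM in control libraries. Ifnar2, the second subunit, had 38.3, 36.2 and 38.8 TPM in shSamd14 libraries, against 40.4, 39.7 and 44.7 TPM in control libraries. CPM of both were lower in all shSamd14 libraries, although the TPM of Ifnar1 overlap. In CPM 3 of the 11 genes stood apart lower, where 10.2% of all tested genes did. Neither Ifnar1 nor Ifnar2 passed, with adjusted p of 0.206 for Ifnar1 and 0.362 for Ifnar2 in edgeR with Benjamini-Hochberg adjustment. Il10rb, a subunit of the receptors for type III interferon and interleukin 10 that lies beside them on chromosome 16, fell, with 35.7, 35.7 and 34.7 TPM in shSamd14 libraries, against 44.7, 39.4 and 45.8 TPM in control libraries. The log2 fold change of Il10rb was -0.30 (SE 0.07, adjusted p = 0.0408, edgeR with Benjamini-Hochberg adjustment). The partner of Il10rb in the type III receptor, Ifnlr1, averaged 0.25 TPM. Jak1 led this list by level at 72.5, 75.1 and 78.8 TPM in shSamd14 libraries and 78.8, 73.3 and 74.7 TPM in control libraries, and Tyk2 averaged 20.5 TPM.

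**Figure D4:**
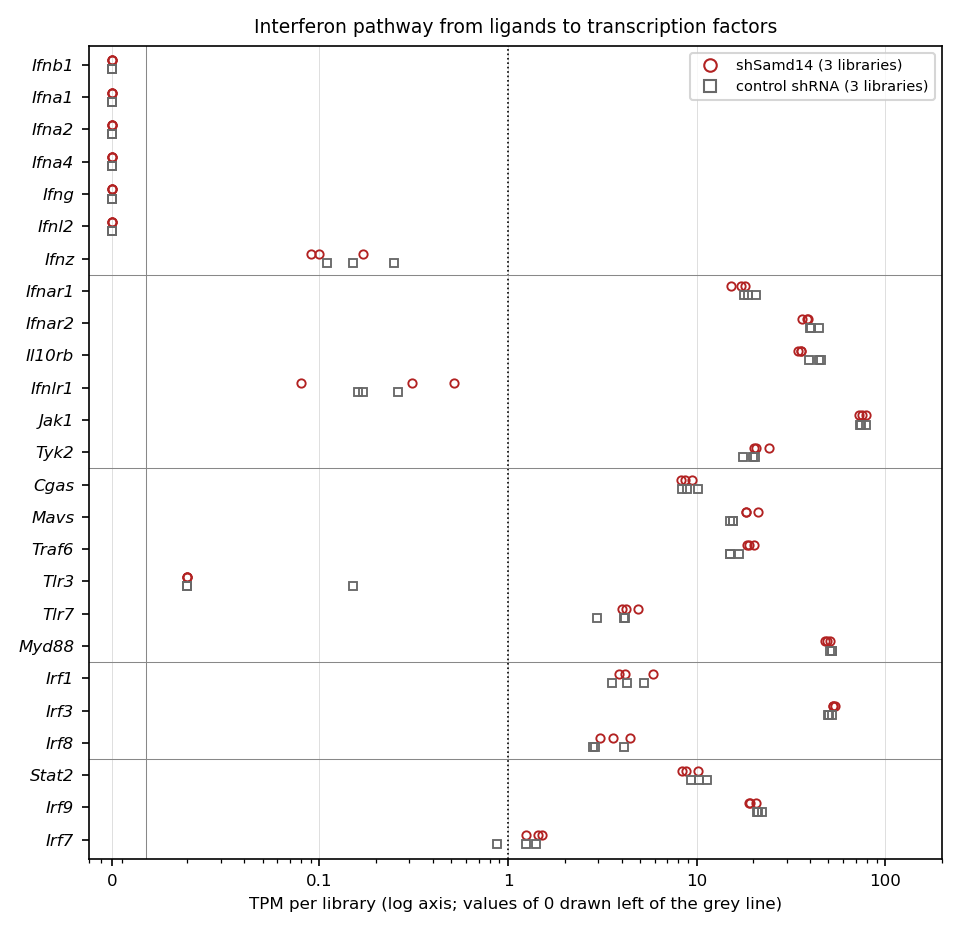
TPM per library on a log axis for ligands, receptors and kinases, sensors and adaptors, transcription factors and, at the bottom, 3 members for comparison, in blocks between the horizontal lines; circles are shSamd14 libraries and squares control libraries. Most ligands sit at 0 left of the grey line, while Ifnar1, Ifnar2, Jak1, Tyk2, Stat2 and Irf9 are at 8 TPM or more in every library.

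Among sensors and adaptors other than the members, 2 of 18 tested genes passed as higher and none as lower in shSamd14 libraries. Over all tested genes 1.32% passed as higher and 1.26% as lower. Log2 fold changes of the 18 were positive for 9 and negative for 9. Of the 5 with an unadjusted p under 0.05 in edgeR, 2 were higher and 3 lower. Mavs, the mitochondrial adaptor through which RIG-I and MDA5 signal, had 18.2, 18.3 and 21.1 TPM in shSamd14 libraries, against 15.5, 15.6 and 15.04 TPM in control libraries. Its log2 fold change was 0.30 (SE 0.08, adjusted p = 0.0482, edgeR with Benjamini-Hochberg adjustment). Traf6, a ubiquitin ligase used by Toll-like receptors and Mavs, had 18.5, 20.3 and 18.96 TPM in shSamd14 libraries, against 16.9, 15.08 and 15.04 TPM in control libraries. Its log2 fold change was 0.29 (SE 0.06, adjusted p = 0.027, same test). Myd88, the adaptor of most Toll-like receptors, was the most abundant of the list at 49.1, 48.1 and 50.8 TPM in shSamd14 libraries and 51.2, 52.2 and 52.1 TPM in control libraries. Tlr3, the endosomal sensor of double-stranded RNA, had 1 count in 5 of the libraries and 7 in control replicate 1.

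Further interferon-stimulated genes outside the list gave 1 call among 62 tested. Cmpk2, a mitochondrial nucleotide kinase, rose, with 6.66, 6.78 and 7.47 TPM in shSamd14 libraries, against 4.71, 5.09 and 5.44 TPM in control libraries. The log2 fold change of Cmpk2 was 0.44 (SE 0.11, adjusted p = 0.0433, edgeR with Benjamini-Hochberg adjustment). Cmpk2 lies at chr12:26469204-26479837 on the plus strand near Rsad2, at chr12:26442746-26456452 on the minus strand, and averaged 6.03 TPM where Rsad2 averaged 0.13 TPM. Ifitm1, an interferon-induced membrane protein, led that list by level at 265, 310 and 375 TPM in shSamd14 libraries and 302, 286 and 373 TPM in control libraries.

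Antigen presentation, which interferon also raises, gave 1 call among 18 tested genes, and it was downward. B2m, the light chain of MHC class I, had 601, 635 and 639 TPM in shSamd14 libraries, against 791, 717 and 791 TPM in control libraries. Its log2 fold change was -0.31 (SE 0.06, adjusted p = 0.0152, edgeR with Benjamini-Hochberg adjustment), the smallest adjusted p of all the pathway lists. Of the 5 calls, that of B2m was lost in 2 of the 6 fits that left out 1 library, those of Cmpk2, Traf6 and Il10rb in 5 and that of Mavs in all 6, with the direction kept in each fit.

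The last 3 lists gave no call by edgeR, DESeq2 or limma-voom. Among 9 tested interferon regulatory factors and their partners 1 had an unadjusted p under 0.05. Irf3, the factor that sensors activate first, was the most abundant of them at 52.9, 52.6 and 53.96 TPM in shSamd14 libraries and 49.6, 52.1 and 50.1 TPM in control libraries. Among 17 tested negative regulators 4 had an unadjusted p under 0.05, where 1900 of all 12670 tested genes did, with Nlrc3 first (log2 fold change -0.41, adjusted p = 0.132, edgeR with Benjamini-Hochberg adjustment) and Rnaseh2a, a subunit of the enzyme that clears RNA-DNA hybrids, the most abundant at a mean of 99.6 TPM. Among 7 tested interferon-induced GTPases 2 had an unadjusted p under 0.05, with Ifi47 first (log2 fold change 0.37, adjusted p = 0.144, same test) and Irgm1 the most abundant at a mean of 36.4 TPM.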

How the data were processed

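Per the file headers, each library has an RSEM gene table of its own, in which the authors deposited the expected count, TPM, FPKM, length and effective length of 24376 gene IDs. RSEM divides a read that maps to several genes among them, and TPM and FPKM as deposited correct for depth and length. FPKM served only as a check of TPM. The submitters' processing notes name RSEM 1.2.15, Bowtie 1.0.1, CASAVA 1.8.2 and mm10, without their roles; annotation, read length and strand use are not given there or in the labels.

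Symbols and gene coordinates come from GENCODE M21 (GRCm38), which named 23580 IDs; Pyhin1, Gbp5, Gbp6 and Gbp10 were not analysed here. Withheld items are not reported here. Rounded expected counts entered edgeR 4.0.16 (R 4.3.3) after filterByExpr (minimum count 10, minimum total 15), which left 12670 genes, with TMM factors (0.986 to 1.02). Groups were compared by the two-sided quasi-likelihood test with robust dispersions (glmQLFit, glmQLFTest) and Benjamini-Hochberg adjustment over all tested genes, at a threshold of 0.05. The SE is the absolute log2 fold change over the square root of F, and intervals are at 95%. CPM are TMM-scaled rounded counts. Chi-square per gene was 5.73 to 12.2 between libraries of a group, so none is a repeat of another. A floor of 3 counts covers counting error only.

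Members and lists were chosen with earlier results of these data known, and no set test was run. All members are named; values per library are given for the 12 with the highest mean TPM, the 6 with the smallest p, those whose groups stood apart by at least 1.25-fold and, as counts, the untested ones. In other lists up to 3 called genes, the smallest p and the highest TPM are named. Ifnar1, Ifnar2, Ifnlr1, Tyk2, Tlr3, Ifnk, Ifnz and the gene copies were added for their role, after their values were seen. Alternatives used other size factors, filters, offsets, DESeq2 1.42.0, limma 3.58.1, summed paralogs and left-out libraries.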

Additional observations from a re-analysis of the deposited data

How the results depend on the processing

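The reported fit called 327 genes, 0 members and 5 pathway genes. With limma on log2(TPM + 1) it was 136 genes and 1 pathway gene, and on log2(TPM + 0.1) 130 genes and 1. Upper-quartile factors gave 3 pathway genes, effective-length offsets 2 and limma-voom 2. At an adjusted p under 0.1 there were 540 genes and 8 pathway genes, and at 0.01 there were 104 and 0. Without 1 library at a time the counts were 128 to 283 genes, 0 to 1 members and 0 to 4 pathway genes, with 0 pathway genes without shSamd14 replicate 2; the lone member was Xaf1, without shSamd14 replicate 1. Same-numbered libraries deviated together with correlations of -0.07, 0.15 and 0.27, and 3 of 6 libraries correlated best with their own number, so a pairing by number was not shown; the replicate block gave 682 genes, 1 member (Xaf1, log2 fold change -0.53) and 10 pathway genes.

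Members that reversed did so mostly when 1 library was left out: over those fits Oasl2 ran between -0.20 and 0.37, Oas2 between -0.44 and 0.16, Oas3 between -0.22 and 0.027, Bst2 between -0.034 and 0.040, Ddx58 between -0.083 and 0.19, and Parp14 between -0.066 and 0.13. Oasl2 was also -0.24 with its paralogs summed. The cause was not tested. Of 449 values of single genes under alternatives 392 kept direction and call; the median of all tested genes stayed between -0.0049 and 0.014.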

Other observations

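Genes that restrict or silence retroviruses were measured as a further list, since every culture had received a retrovirus. The list shares Mx1 with the members. Its 13 genes were all tested in edgeR, and none had an unadjusted p under 0.05. EdgeR, DESeq2 and limma-voom each gave 0 calls, with no adjusted p for Mx1 in DESeq2. Trim28, a corepressor that silences retroviral sequences, was the most abundant at 202, 200.02 and 212 TPM in shSamd14 libraries, against 189, 191 and 183 TPM in control libraries (adjusted p = 0.404, edgeR with Benjamini-Hochberg adjustment). Apobec3, a cytidine deaminase that restricts retroviruses, had 138, 147 and 155 TPM in shSamd14 libraries and 145, 147 and 143 TPM in control libraries.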
